A study of Mus musculus with 72 samples.

Results

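Livers of wild-type (WT) C57BL/6 mice taken at zeitgeber time (ZT) 12, when the lights go off and the rest phase ends, were compared with livers of the same strain and genotype taken at ZT0, when the lights come on and the active phase of these nocturnal animals ends. The 6 arrays, 3 at ZT12 and 3 at ZT0, were chosen by their strain, genotype and time labels alone, out of 72 in the series. Mice were kept on 12 h of light and 12 h of dark, and livers were flash-frozen. The series sampled livers every 4 h from 2 cohorts, in which WT mice were set beside liver-specific knockouts (KO) of SIRT1 (strain C57BL/6) or SIRT6 (strain 129 mixed), both NAD-dependent deacylases, and each group of cohort, genotype and time had 3 arrays. Besides the C57BL/6 WT livers, the same times were read in SIRT1 KO livers (C57BL/6) and in 129 mixed WT livers, which share no array with them. The WT mice carry no knockout, the labels used here give neither age nor sex, and they do not say that replicates were separate mice, so p-values measure the spread between samples, which may be technical.

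The mammalian clock runs in nearly every cell as a loop in which BMAL1 (encoded by Arntl) pairs with CLOCK or NPAS2 to switch on genes that carry E-boxes, among them Per, Cry and Rev-erb genes. PER and CRY proteins then silence that pair, while REV-ERB and ROR proteins compete at ROR elements to repress or activate Arntl and its relatives. In the liver this loop is joined by the rhythm of feeding and of glucocorticoids, so that fasting pathways, sterol synthesis and protein folding also follow the time of day.

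Promoter sequences of 8 genes are shown first, because the elements named above, and the endoplasmic reticulum (ER) stress element of chaperone genes, can be read in them. They come from RefSeq windows of build GRCm38.p6, which run from 250 bases before to 50 bases after a gene's start, are written 5′ to 3′ along the gene, and were chosen after matches and values had been seen. Motifs were searched on both strands by exact letters, with N for any base: CACGTG (E-box), TTANGTAA (D-box), TAGGTCA (core of a ROR element) and, for the ER stress element, CCAAT and CCACG separated by any 9 bases. A sterol regulatory element (TCACNCCAC) and the heat shock element described below were searched as well. Capitals mark the matches of the element named for each window. A match is a description of letters and not a shown binding site. Of the windows shown, those with E-boxes are from Ciart (chr3:95882179-95882478, minus strand), Per1 (chr11:69098699-69098998, plus strand) and Tef (chr15:81802423-81802722, plus strand), all higher at ZT12.
Ciart: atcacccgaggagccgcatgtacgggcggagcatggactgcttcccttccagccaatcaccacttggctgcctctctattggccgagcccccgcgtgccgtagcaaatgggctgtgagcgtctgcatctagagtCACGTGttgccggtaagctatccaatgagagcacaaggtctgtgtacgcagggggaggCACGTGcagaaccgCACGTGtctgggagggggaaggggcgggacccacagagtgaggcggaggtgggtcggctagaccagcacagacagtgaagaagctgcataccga
Per1: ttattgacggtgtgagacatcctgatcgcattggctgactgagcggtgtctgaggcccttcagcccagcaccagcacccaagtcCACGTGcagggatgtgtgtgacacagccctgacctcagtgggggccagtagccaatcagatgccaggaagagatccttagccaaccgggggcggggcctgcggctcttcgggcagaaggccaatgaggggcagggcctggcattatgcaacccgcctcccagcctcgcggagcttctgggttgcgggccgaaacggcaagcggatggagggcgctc
Tef: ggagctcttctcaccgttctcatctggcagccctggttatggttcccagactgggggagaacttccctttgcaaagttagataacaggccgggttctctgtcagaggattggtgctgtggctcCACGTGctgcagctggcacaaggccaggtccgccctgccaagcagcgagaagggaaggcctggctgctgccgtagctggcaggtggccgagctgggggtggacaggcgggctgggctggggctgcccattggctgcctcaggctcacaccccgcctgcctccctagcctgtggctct
Per3 (chr4:151044616-151044915, minus strand), also higher at ZT12, holds 2 D-boxes.
Per3: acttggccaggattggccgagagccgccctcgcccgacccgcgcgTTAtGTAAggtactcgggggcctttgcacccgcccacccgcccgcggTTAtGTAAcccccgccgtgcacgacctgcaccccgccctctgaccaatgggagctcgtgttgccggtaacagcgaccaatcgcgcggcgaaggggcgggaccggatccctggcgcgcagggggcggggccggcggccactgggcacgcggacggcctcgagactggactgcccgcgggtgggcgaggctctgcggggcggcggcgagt
Arntl (chr7:113207261-113207560, plus strand) and Nfil3 (chr13:52980990-52981289, minus strand), both lower at ZT12, hold the ROR element core, in Nfil3 on the opposite strand to the gene.
Arntl: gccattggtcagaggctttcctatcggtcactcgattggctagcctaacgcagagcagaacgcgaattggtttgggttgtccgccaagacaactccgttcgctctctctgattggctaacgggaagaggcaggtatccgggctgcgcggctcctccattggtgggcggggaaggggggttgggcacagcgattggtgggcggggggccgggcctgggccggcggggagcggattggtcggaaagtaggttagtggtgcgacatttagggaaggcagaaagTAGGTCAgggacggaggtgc
Nfil3: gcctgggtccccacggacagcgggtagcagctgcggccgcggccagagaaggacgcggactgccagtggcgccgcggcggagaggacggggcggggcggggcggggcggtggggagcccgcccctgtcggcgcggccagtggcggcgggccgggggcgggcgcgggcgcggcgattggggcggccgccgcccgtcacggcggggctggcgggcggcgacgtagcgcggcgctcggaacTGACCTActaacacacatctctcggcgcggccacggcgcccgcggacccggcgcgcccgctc
The chaperone genes Hspa5 (chr2:34771840-34772139, plus strand) and Pdia6 (chr12:17266339-17266638, plus strand), both lower at ZT12, hold the ER stress element.
Hspa5: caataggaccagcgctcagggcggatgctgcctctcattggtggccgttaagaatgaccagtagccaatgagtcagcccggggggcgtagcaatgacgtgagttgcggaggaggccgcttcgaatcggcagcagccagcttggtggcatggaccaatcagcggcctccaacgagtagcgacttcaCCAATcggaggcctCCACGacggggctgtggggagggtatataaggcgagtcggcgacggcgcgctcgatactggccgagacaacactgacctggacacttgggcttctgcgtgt
Pdia6: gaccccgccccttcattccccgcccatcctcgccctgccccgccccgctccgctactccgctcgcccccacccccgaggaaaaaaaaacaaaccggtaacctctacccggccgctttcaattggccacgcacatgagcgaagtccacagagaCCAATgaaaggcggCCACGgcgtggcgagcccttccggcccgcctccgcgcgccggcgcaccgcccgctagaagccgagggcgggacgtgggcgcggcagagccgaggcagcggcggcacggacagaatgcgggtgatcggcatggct

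An E-box was present in 7.15% of all 32851 promoter windows and in the window of 11.4% of 10455 tested genes that had one. It was present in 17.7% of 547 such genes that were higher at ZT12 and in 10.9% of 496 that were lower. The ROR element core was found in 2.61% of all windows and in 2.53% of the tested genes, against 2.74% of those higher and 4.23% of those lower at ZT12. D-boxes were found in 2.32% of all windows and in 1.90%, 2.38% and 1.81% of the tested, higher and lower genes. The ER stress element was in 39 of all windows (0.119%) and in 19 of the 10455 tested genes, of which 8 were lower and 0 higher at ZT12. The sterol regulatory element was in 1.24% of all windows and in 1.45%, 1.46% and 2.62% of the tested, higher and lower genes. Several windows of a gene were counted as 1 gene if any held the letters. Of clock genes with a window, 4 of 8 repressors held an E-box, among them Cry1 and Bhlhe41, which did not pass the test between the times. The ROR element core was in 1 of 4 activators, and a D-box in 0 of 4 output factors.

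The tissue label was checked against 11 hepatocyte markers such as Alb, Cyp2e1 and Hnf4a, whose summed intensity was 67293.3 to 70249.3 at ZT12 and 68556.6 to 70468.2 at ZT0. All 11 were measured above the low-signal floor and 0 passed the test. Median probe set intensity per array was 48.8 to 52.0 at ZT12 and 51.6 to 53.8 at ZT0. Replicates correlated at r of 0.9845 or more at ZT12 and 0.9829 or more at ZT0 over the genes tested, and arrays across the times at 0.9632 or more. Summed Kupffer cell markers (14 genes) ranged from 4067.4 to 8210.4 at ZT12 and from 4178.0 to 7250.4 at ZT0, and 0 passed the test. The sums of 12 endothelial markers were 9089.7 to 10011.3 at ZT12 and 9964.9 to 10690.2 at ZT0. The sums of 12 stellate cell markers were 6376.5 to 6633.0 at ZT12 and 6895.9 to 7196.3 at ZT0, without overlap, although 0 of the 12 passed. In whole tissue, fewer cells of a type cannot be told apart from less RNA per cell. Of 7 lymphocyte and neutrophil markers tested 1 passed (14.3%), Cd4 (lower), where 9.83% of all genes passed in either direction. Cd4 did not pass without ZT12 replicate 2, ZT0 replicate 1 or ZT0 replicate 2. The 1 red cell and 2 exocrine pancreas markers tested did not pass.

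On intensities taken as log2(intensity + 16), 1308 of 13308 genes (9.83%) passed an adjusted p of 0.05 in limma, with 692 higher at ZT12 (5.2%) and 616 lower (4.63%). At an unadjusted p of 0.05 the number was 2894. The change of the median gene was 0. With each array centred on its median the numbers were 773 higher and 361 lower, or 68.2% higher among those called, against 52.9% as deposited. Changes were mostly small, with a median size of 0.46 (log2) among the higher and 0.54 among the lower genes. Genes changed at least 2-fold numbered 78 higher and 79 lower, and those changed at least 4-fold 16 and 12. The 3 arrays at ZT12 lay wholly above or below the 3 at ZT0 for 671 of the genes called higher and 602 of those called lower, where 25.2% of all tested genes showed such separation. The genes just inside the threshold were Gm4827, Cab39 and Cgnl1, at adjusted p of 0.049804 to 0.049962, and those just outside were Tbc1d2b, Unc93a2 and Pank3, at 0.050014 to 0.050044. Without ZT12 replicate 3, 823 genes were called, 354 higher and 469 lower.

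Core clock activators were lower and repressors higher at ZT12. Of 4 activators measured, Arntl, Npas2 and Clock fell at ZT12, and of 9 repressors 7 rose, with median changes of -2.17 and 1.20 (log2) where the median over all genes was 0. Over all genes, 4.63% were called lower and 5.2% higher. Npas2, a partner of BMAL1, had intensities of 36.9, 24.6 and 19.8 at ZT12, against 600.2, 613.9 and 578.2 at ZT0. Its change was -3.85 ± 0.28 (log2, SE), 14.4-fold lower, at a limma adjusted p of 4.69e-11. Arntl had 59.9, 70.3 and 44.7 at ZT12 and 700.5, 671.9 and 682.3 at ZT0, 9.53-fold lower (-3.25 ± 0.28 log2, limma adjusted p 9.52e-10). The groups of arrays lay far apart for both genes, with the ZT0 arrays close together. Clock, the other partner, had 990.3, 712.2 and 714.6 at ZT12, against 1891.6, 1541.4 and 1697.2 at ZT0, a smaller change of -1.08 ± 0.11. Rora, which encodes an activator at ROR elements, differed by 0.14 ± 0.11 and did not pass (limma adjusted p 0.554).

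Among the repressors, Ciart, whose protein binds and inhibits the CLOCK and BMAL1 pair, had 575.2, 547.5 and 577.5 at ZT12, against 18.4, 15.5 and 18.2 at ZT0. This was a change of 4.13 ± 0.20 (log2), 17.5-fold on the scale used, at a limma adjusted p of 2.42e-15, and the ZT0 values were near the added constant, so that the fold understates the ratio of intensities. Per1 had 541.9, 687.2 and 733.0 at ZT12 and 76.0, 33.9 and 26.3 at ZT0, a change of 3.52 ± 0.27. The highest ZT0 array of Per1, replicate 1, was still far below every ZT12 array. Per3 rose by 2.87 ± 0.25 and Cry2 by 0.90 ± 0.14. Nr1d2 (REV-ERB beta) had 1547.2, 1447.1 and 1550.5 at ZT12, against 291.4, 307.8 and 296.5 at ZT0, a change of 2.28 ± 0.15. Its paralogue Nr1d1 (REV-ERB alpha) had 555.7, 681.1 and 523.2 at ZT12 and 340.1, 212.5 and 246.2 at ZT0, a change of 1.11 ± 0.24 (limma adjusted p 0.00222), which no longer passed when all 72 arrays entered the fit. Nr1d1 was not near its daily maximum at either time. Over ZT0, 4, 8, 12, 16 and 20 its mean level was 8.12, 11.07, 10.76, 9.23, 7.80 and 6.23 (log2). Bhlhe40 (DEC1) rose by 1.20 ± 0.27, Bhlhe41 (DEC2) differed by 0.87 ± 0.37 and did not pass (limma adjusted p 0.15), and Cry1, the late repressor of the loop, differed by -0.35 ± 0.16 and did not pass (limma adjusted p 0.179).

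**Figure D1:**
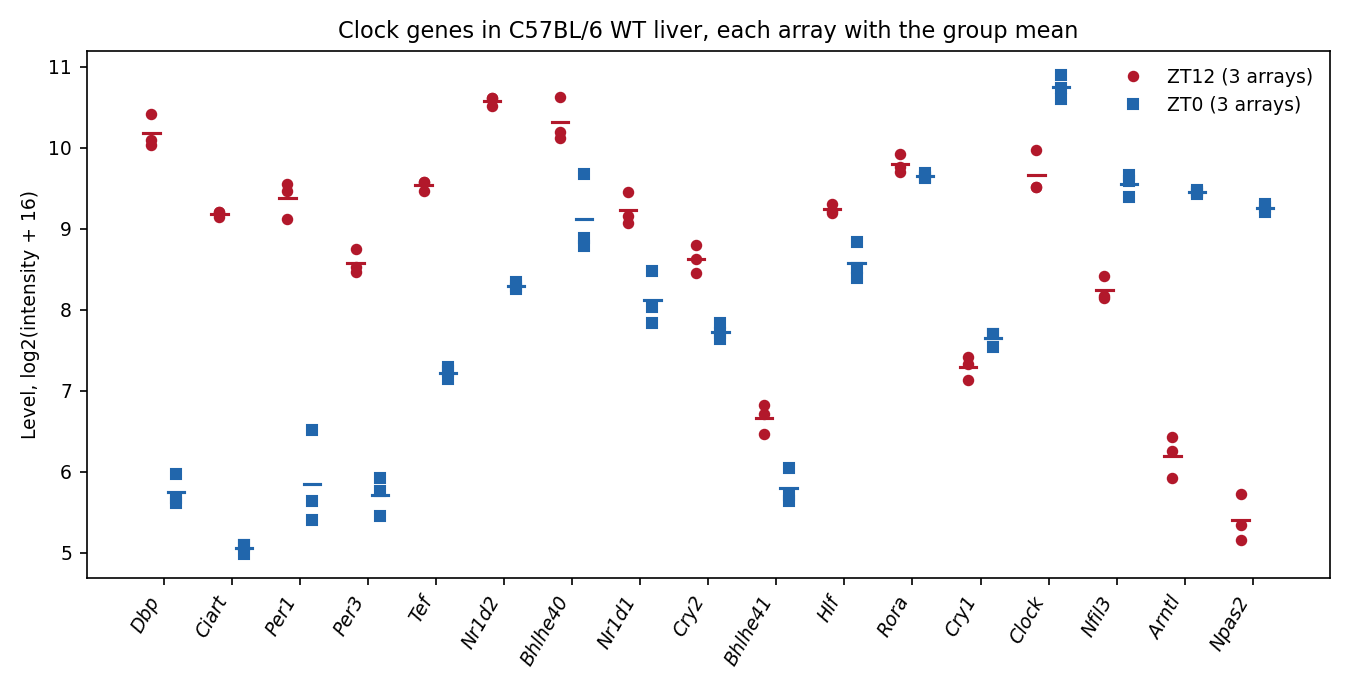
Levels of 17 clock genes, log2(intensity + 16), in each ZT12 array (red circles, left of each pair) and each ZT0 array (blue squares, right), with a bar at the mean of 3. Genes are ordered by their change on this scale, from Dbp (4.43) to Npas2 (-3.85), with Dbp and Ciart in the other order for an added constant of 1. The groups do not overlap for any of the 17, including Bhlhe41, Rora and Cry1, which did not pass the test. Such separation was seen in 25.2% of all tested genes.

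The output factors carry the clock to other promoters by binding D-boxes. Dbp, an activator there, had 1026.9, 1084.4 and 1340.6 at ZT12, against 46.8, 35.1 and 32.7 at ZT0, a rise of 4.43 ± 0.35 (log2, 21.5-fold, limma adjusted p 2.04e-10). Its order relative to Ciart depends on the added constant, since with a constant of 1 the changes were 4.88 for Dbp and 4.95 for Ciart. Its relatives Tef and Hlf rose by 2.31 ± 0.16 and 0.66 ± 0.12. A second, dimmer Tef probe set differed by 0.21. Nfil3, the repressor at the same sites, had 265.5, 324.9 and 271.4 at ZT12, against 755.9, 795.6 and 653.4 at ZT0, a change of -1.31 ± 0.21. The D-box activators and their repressor thus moved in opposite directions. Over the 18 C57BL/6 WT arrays of the day, the genes whose levels followed Dbp most closely were Nr1d2 (Pearson r 0.944), Fgfrl1 (0.935), Tef (0.934), Narf (0.934) and Anxa7 (0.917). Those closest to Arntl were Chka (0.967), Nedd4l (0.965), Celsr1 (0.956), Fpgs (0.954) and Lgalsl (0.953). These 18 arrays include the 6 compared here, and 3 share each time point.

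Of 20 clock-controlled liver genes measured, 9 rose and 6 fell, against 5.2% and 4.63% of all genes. All gene lists used here were chosen with earlier results of these data known. Their counts beside the shares of all genes are therefore a description and no test. Usp2, a deubiquitinase, had 1511.5, 1634.1 and 1893.4 at ZT12, against 174.9, 91.0 and 98.5 at ZT0 (3.67 ± 0.28 log2, 12.7-fold). Wee1, the kinase that delays entry into mitosis, had 475.8, 491.1 and 592.4 at ZT12 and 74.3, 49.6 and 63.9 at ZT0 (2.77 ± 0.26). Coq10b, which binds coenzyme Q, rose by 2.18 ± 0.18, and Upp2, a uridine phosphorylase, by 1.86 ± 0.16. Nampt, the enzyme that limits salvage synthesis of NAD, had 1531.1, 1745.1 and 1641.5 at ZT12, against 563.4, 472.4 and 701.7 at ZT0 (1.49 ± 0.16, 2.81-fold). Of 16 NAD genes 3 rose, Nampt, Nmrk1 (nicotinamide riboside kinase, 1.39 ± 0.18) and Sirt3 (0.44 ± 0.09), and Sirt1 differed by 0.26 ± 0.09 without passing (limma adjusted p 0.0628). Among those that fell, Elovl3, an elongase of very long fatty acids, had 1369.8, 1035.4 and 942.0 at ZT12, against 7146.2, 6905.6 and 6086.7 at ZT0 (-2.59 ± 0.24, 6.01-fold lower). Avpr1a, a vasopressin receptor, fell by 1.91 ± 0.19 on the log2 scale.

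Beyond the clock, the largest rises included Rgs16, a regulator of G protein signalling, with 257.5, 775.7 and 1431.3 at ZT12, against 40.2, 58.2 and 41.9 at ZT0. Its arrays did not overlap, but the ZT12 values spread widely, and the change of 3.45 had an SE of 0.78. Mfsd2a, a lysophosphatidylcholine transporter, had 2451.7, 1651.3 and 2313.5 at ZT12 and 255.5, 156.4 and 175.5 at ZT0 (3.35 ± 0.31). Lpin1, a phosphatidate phosphatase, rose by 2.41 ± 0.28, and Gpcpd1, a glycerophosphocholine phosphodiesterase, by 2.09 ± 0.26. Acot3, a peroxisomal acyl-CoA thioesterase, rose by 2.61 ± 0.53, and the cytochrome P450 gene Cyp2g1 by 2.30 ± 0.34.

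**Figure D2:**
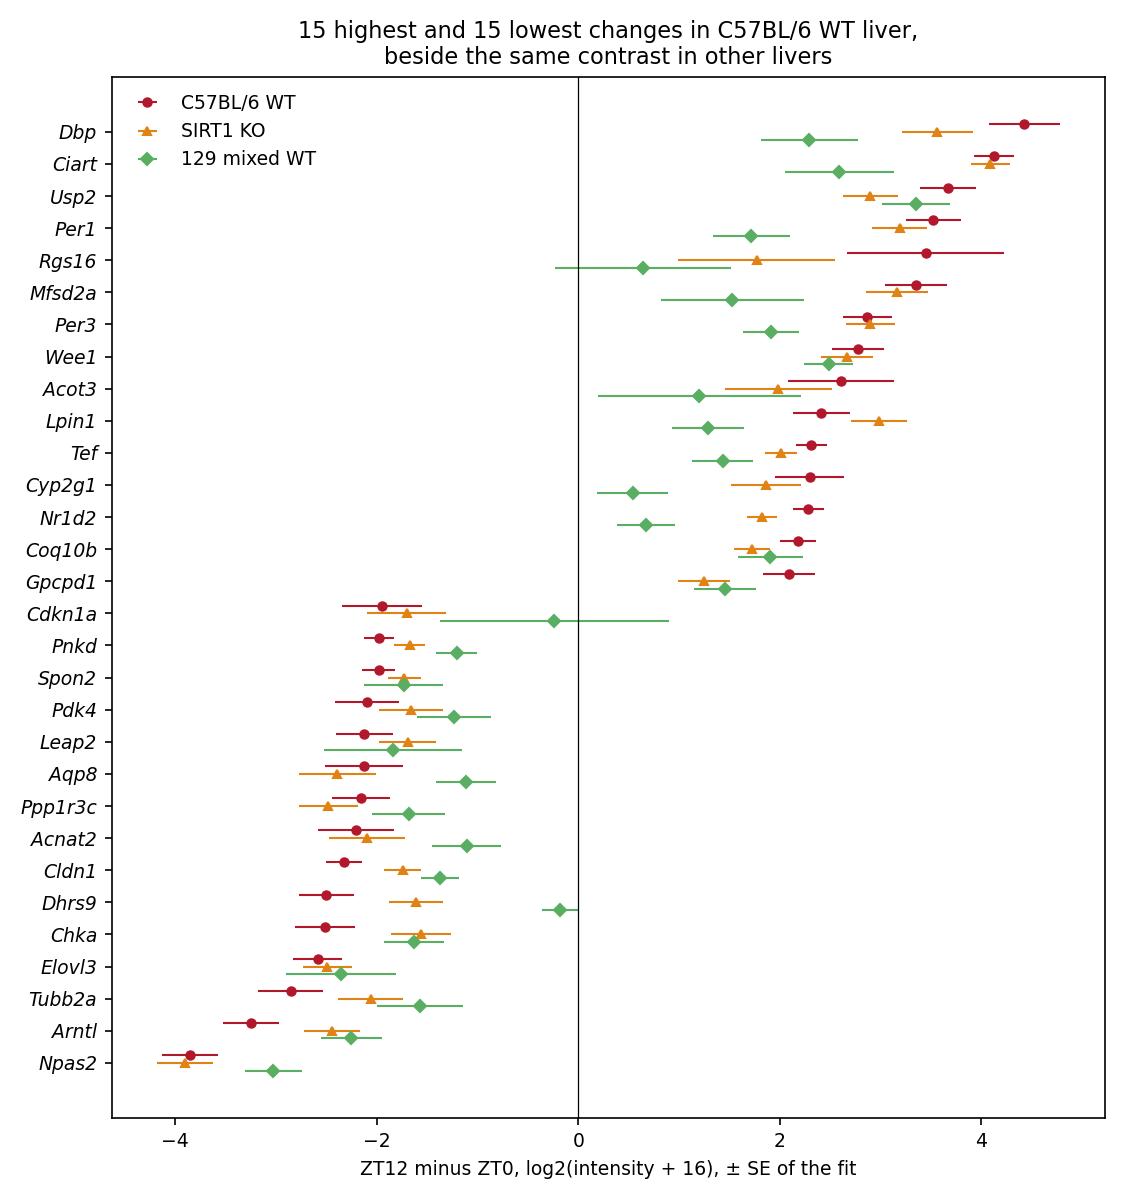
The 15 highest and 15 lowest changes, ZT12 minus ZT0 in log2(intensity + 16), among genes that passed the test with arrays that did not overlap, in C57BL/6 WT livers (red circles), SIRT1 KO livers (orange triangles) and 129 mixed WT livers (green diamonds), with bars of 1 SE of the limma fit. In all 3 kinds of liver each of these 30 genes had its estimate on the same side of 0, and in 129 mixed WT livers Dhrs9 was at -0.18 and Cdkn1a at -0.24, with Cdkn1a at -1.93 without ZT12 replicate 1 of that strain.

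Among the largest falls, Tubb2a, a beta tubulin, had 86.6, 75.9 and 59.6 at ZT12, against 648.0, 621.3 and 619.3 at ZT0 (-2.85 ± 0.32 log2). Chka, the choline kinase that begins phosphatidylcholine synthesis, had 147.3, 197.5 and 146.3 at ZT12 and 1075.6, 879.2 and 1069.0 at ZT0 (-2.52 ± 0.30), and a second, dimmer probe set differed by -0.40. Cldn1, a tight junction claudin, fell by 2.33 ± 0.18 and the water channel gene Aqp8 by 2.13 ± 0.38 on the log2 scale. Leap2, whose secreted product blocks the ghrelin receptor, had 136.1, 125.4 and 55.6 at ZT12, against 568.0, 425.4 and 480.5 at ZT0 (-2.13 ± 0.28). Ppp1r3c, which brings protein phosphatase to glycogen, had 547.7, 537.5 and 470.1 at ZT12 and 2731.9, 1967.0 and 2445.8 at ZT0 (-2.16 ± 0.29). Pdk4, the kinase that turns off pyruvate dehydrogenase, had 94.7, 172.8 and 123.3 at ZT12, against 778.1, 507.9 and 534.5 at ZT0 (-2.10 ± 0.32). Cdkn1a (p21) had 76.5, 31.9 and 60.8 at ZT12 and 548.1, 212.8 and 135.1 at ZT0 (-1.95 ± 0.40), with its ZT0 arrays spread widely, and no longer passed when all 72 arrays entered the fit.

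Of 21 genes of cholesterol synthesis and uptake, 14 fell and 0 rose, against 4.63% and 5.2% of all genes, with a median change of -0.51 (log2). The arrays of 16 members at ZT12 lay wholly below those at ZT0, as did those of 12.2% of all genes. Hmgcs1, which makes the substrate of HMG-CoA reductase, had 1606.0, 1768.9 and 1895.7 at ZT12, against 3769.0, 4307.6 and 4943.9 at ZT0 (-1.29 ± 0.18, 2.45-fold lower). Mvd, the mevalonate diphosphate decarboxylase, had 167.5, 206.7 and 208.1 at ZT12 and 602.6, 614.0 and 492.0 at ZT0 (-1.48 ± 0.20). Fdps, the farnesyl diphosphate synthase, fell by 0.54 ± 0.12 on the log2 scale. Srebf2, the transcription factor that drives the pathway, fell by 0.51 ± 0.11, and Insig2, which holds that factor in the ER, had 998.9, 681.8 and 605.1 at ZT12, against 2521.0, 2213.5 and 2663.0 at ZT0 (-1.70 ± 0.14). The factor and its restraint were both lower at ZT12. The 7 members that did not pass included Msmo1 (-0.40 ± 0.18), Hsd17b7 (-0.32 ± 0.13) and Nsdhl (-0.21 ± 0.12). Without ZT12 replicate 1 the number of members that fell was 9. The sterol regulatory element was in 1 of the 17 members with a promoter window (5.88%), against 1.45% of tested genes.

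Of 23 genes of ER folding and the unfolded protein response, 14 fell and 1 rose, against 4.63% and 5.2% of all genes, with a median of -0.36 (log2). Sdf2l1, a component of the ER chaperone complex, had 644.4, 603.0 and 605.7 at ZT12, against 1828.3, 1607.8 and 1209.2 at ZT0 (-1.28 ± 0.19, limma adjusted p 2.33e-05). Dnajb11, a cochaperone of BiP, had 528.5, 510.6 and 564.8 at ZT12 and 873.8, 860.0 and 791.7 at ZT0 (-0.64 ± 0.09). The disulfide isomerases Pdia6 and Pdia3 fell by 0.59 ± 0.10 and 0.36 ± 0.08, and calreticulin (Calr) by 0.36 ± 0.08. Hspa5 (BiP), named for its promoter, had 2043.5, 2366.7 and 2142.7 at ZT12, against 3243.2, 2655.5 and 2794.7 at ZT0 (-0.40 ± 0.11). Herpud1, an ER membrane protein of protein degradation, moved the other way, with 3540.2, 3998.9 and 4064.7 at ZT12 and 3032.4, 1652.9 and 1517.3 at ZT0 (0.97 ± 0.15). The stress factor gene Ddit3 (CHOP) differed by -0.14 ± 0.22 and did not pass (limma adjusted p 0.81). Of the 20 members with a promoter window 9 (45.0%) held the ER stress element, against 0.182% of tested genes. Without ZT12 replicate 1, ZT12 replicate 3 or ZT0 replicate 1, 8, 8 and 7 members fell, and 9 fell with arrays centred on their medians or with a fit of the 18 C57BL/6 WT arrays alone.

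Heat shock chaperone genes had fewer calls, as 4 of 15 fell and 0 rose (median -0.20 log2), against 4.63% and 5.2% of all genes. Hsp90aa1, the inducible HSP90, had 569.9, 700.8 and 484.2 at ZT12, against 1160.6, 769.6 and 865.4 at ZT0 (-0.65 ± 0.15), and Hspa4l fell by 0.72 ± 0.15 on the log2 scale. Hspb1 (HSP27) fell by 1.02 ± 0.29 and the HSP90 cochaperone Stip1 by 0.41 ± 0.12. Hsph1 and Bag3, partners of HSP70, did not pass (-0.52 ± 0.22 and -0.35 ± 0.22), and in both the ZT0 replicate 1 array stood above the other 5, at 667.4 and 865.7. Without ZT12 replicate 3 or ZT0 replicate 1 only 1 member of the list fell, and without ZT12 replicate 1, 2 did. Hspb1 passed in 1 of the 6 fits with 1 array left out. The heat shock element (GAA, TTC and GAA in a row, each separated by any 2 bases) was in 4 of the 13 members with a window (30.8%), against 0.574% of tested genes. These were Hspd1, Hspe1, Hsph1 and Chordc1, none of them among the 4 members that fell. The windows of Hspd1 and Hspe1 overlap and hold the same sites, which were thus counted for both genes. Of 9 cold-inducible RNA binders 1 rose, Hnrnpdl, which lost the call without any 1 array, and 2 fell, and Cirbp itself differed by 0.19 ± 0.18 (limma adjusted p 0.63).

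**Figure D3:**
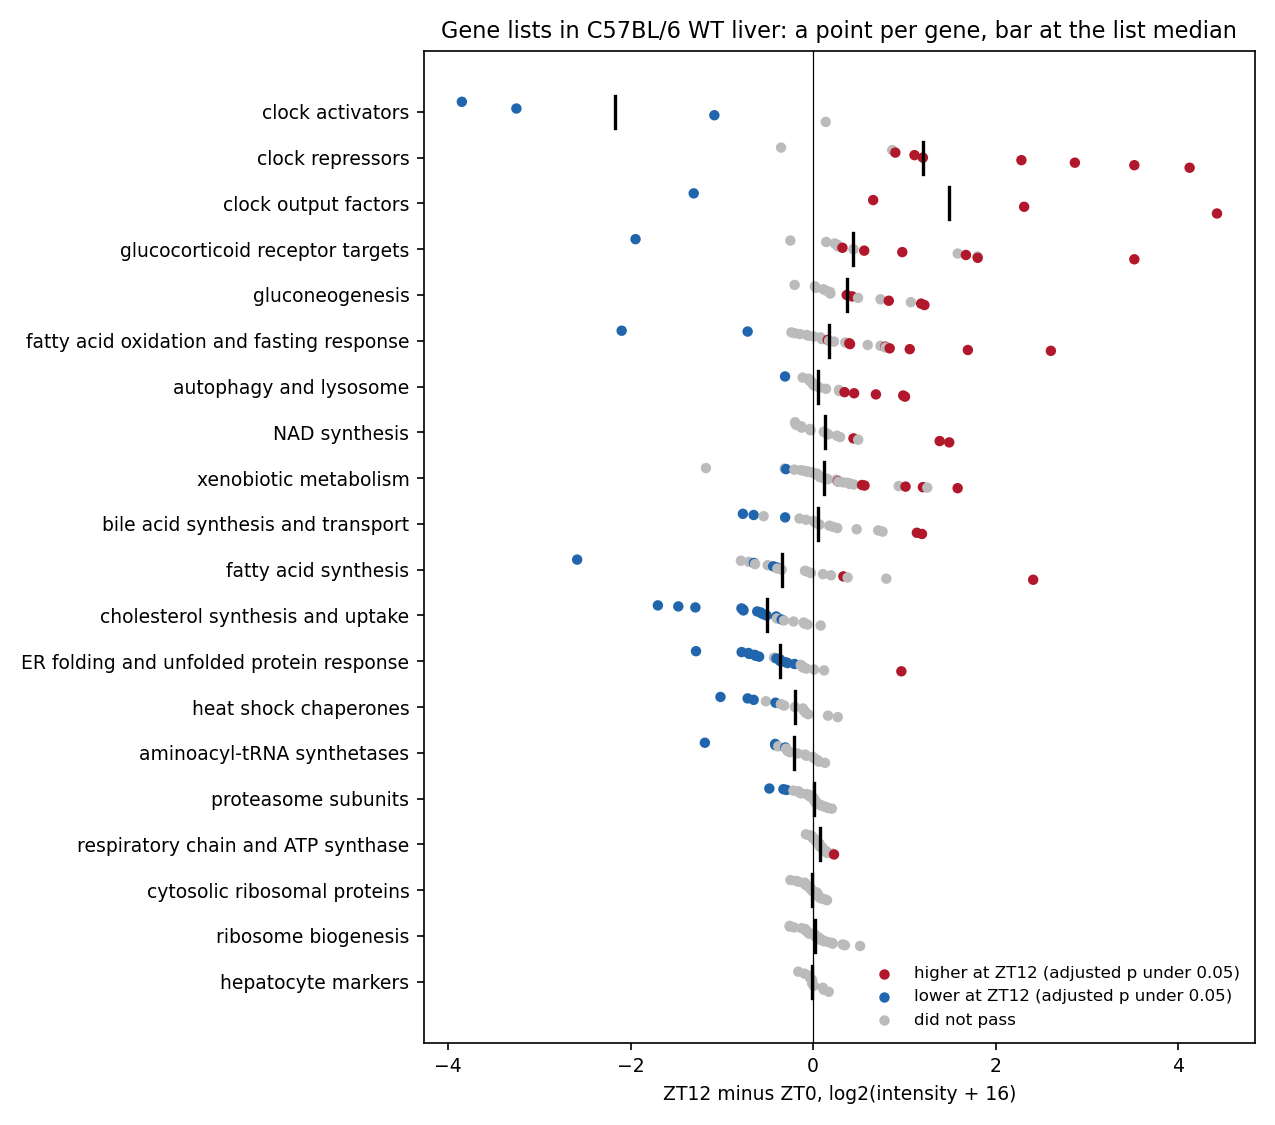
ZT12 minus ZT0, log2(intensity + 16), in C57BL/6 WT livers for each measured member of 20 gene lists, coloured by whether it passed the limma test, with a black bar at the list median. Clock activators (-2.17), cholesterol synthesis (-0.51) and ER folding (-0.36) have medians below 0, clock repressors (1.20), glucocorticoid receptor targets (0.44) and gluconeogenesis (0.37) above it.

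Of 15 glucocorticoid receptor targets 6 rose, 1 fell and 8 did not pass (median 0.44 log2), where 5.2% of all genes rose and 4.63% fell. Per1 is both a target and a clock gene. Fkbp5, a cochaperone that damps the receptor, had 273.2, 274.0 and 378.5 at ZT12, against 92.1, 64.5 and 73.3 at ZT0 (1.80 ± 0.18, 3.49-fold). Zbtb16, a zinc finger repressor, rose by 1.68 ± 0.30, the phosphatase gene Dusp1 by 0.98 ± 0.25 with overlapping arrays and with no call without ZT12 replicate 2 or ZT0 replicate 3, and Errfi1, an inhibitor of the EGF receptor, by 0.32 ± 0.07, though not in a fit of all 72 arrays. The metallothionein gene Mt2 had 452.6, 175.8 and 1416.4 at ZT12 and 157.1, 140.2 and 96.5 at ZT0, and did not pass (1.80 ± 0.94, limma adjusted p 0.271). The 1 member that fell was Cdkn1a. Of 15 gluconeogenesis genes 5 rose, 0 fell and 10 did not pass (median 0.37), the risers including Pck1, the committing enzyme, with 7536.6, 7515.1 and 8240.8 at ZT12, against 4214.3, 3519.2 and 2659.8 at ZT0 (1.18 ± 0.19). The glucose 6-phosphate transporter Slc37a4 rose by 0.83 ± 0.13 and the mitochondrial carrier Slc25a47 by 1.22 ± 0.19. Ppargc1a, a coactivator of the pathway, differed by 1.07 ± 0.39 and did not pass (limma adjusted p 0.0816). Without ZT12 replicate 3 or ZT0 replicate 3, 3 gluconeogenesis genes rose, and 8 rose when the 6 arrays were fitted alone.

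Gys2, the liver glycogen synthase, had 2981.0, 3765.9 and 4052.5 at ZT12, against 1595.0, 1547.3 and 1648.6 at ZT0 (1.15 ± 0.13). Of 13 glycolysis and glycogen genes 3 rose and 0 fell, against 5.2% and 4.63% of all genes. The others that rose were Pfkfb3 (1.80 ± 0.33), which makes fructose 2,6-bisphosphate, and Ugp2 (0.55 ± 0.09), which makes UDP-glucose. Of 21 insulin and feeding responsive genes 3 rose and 2 fell, against the same shares of all genes. The forkhead factor genes Foxo1 and Foxo3, whose products insulin holds in check, rose by 0.66 ± 0.10 and 0.79 ± 0.13, and Irs1, an insulin receptor substrate, fell by 0.61 ± 0.17 on the log2 scale. Without ZT12 replicate 1, ZT0 replicate 1 or ZT0 replicate 2, Irs1 did not pass.

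Of 25 genes of fatty acid oxidation and the fasting response 8 rose and 2 fell (median 0.17 log2), against 5.2% and 4.63% of all genes. Cpt1a, the gate for fatty acids into mitochondria, had 3658.9, 4402.2 and 4626.0 at ZT12, against 2367.7, 2427.6 and 2246.8 at ZT0 (0.84 ± 0.09), and Ppara, the nuclear receptor of fasting, rose by 0.79 ± 0.13. Acot4, a thioesterase, rose by 1.06 ± 0.20, while a second probe set of similar level (mean 7.95 against 8.37, log2) differed by 0.34. The 2 that fell were Pdk4 and the lipid droplet gene Plin2 (-0.72 ± 0.14), so that 2 genes usually raised in fasting were lower at the time when Cpt1a and Ppara were higher. Cyp4a14, a PPAR alpha target, had 2165.8, 119.2 and 1959.7 at ZT12 and 104.2, 444.0 and 2255.6 at ZT0, with fully overlapping groups. Leaving out any 1 of the 6 arrays left 4 or 5 members that rose. Of 19 fatty acid synthesis genes 2 rose and 4 fell (median -0.35), and only Elovl3 among the 4 that fell remained so in every fit with 1 array left out. Fasn, the fatty acid synthase, had 1839.5, 2979.4 and 1933.8 at ZT12, against 3213.7, 3322.5 and 3859.2 at ZT0 (-0.65 ± 0.21, limma adjusted p 0.0473). Its change was 0.52 in SIRT1 KO livers and 0.30 in 129 mixed WT livers. The number of members that fell was 1 without ZT12 replicate 3, ZT0 replicate 2 or ZT0 replicate 3, and 2 without ZT12 replicate 1.

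**Figure D4:**
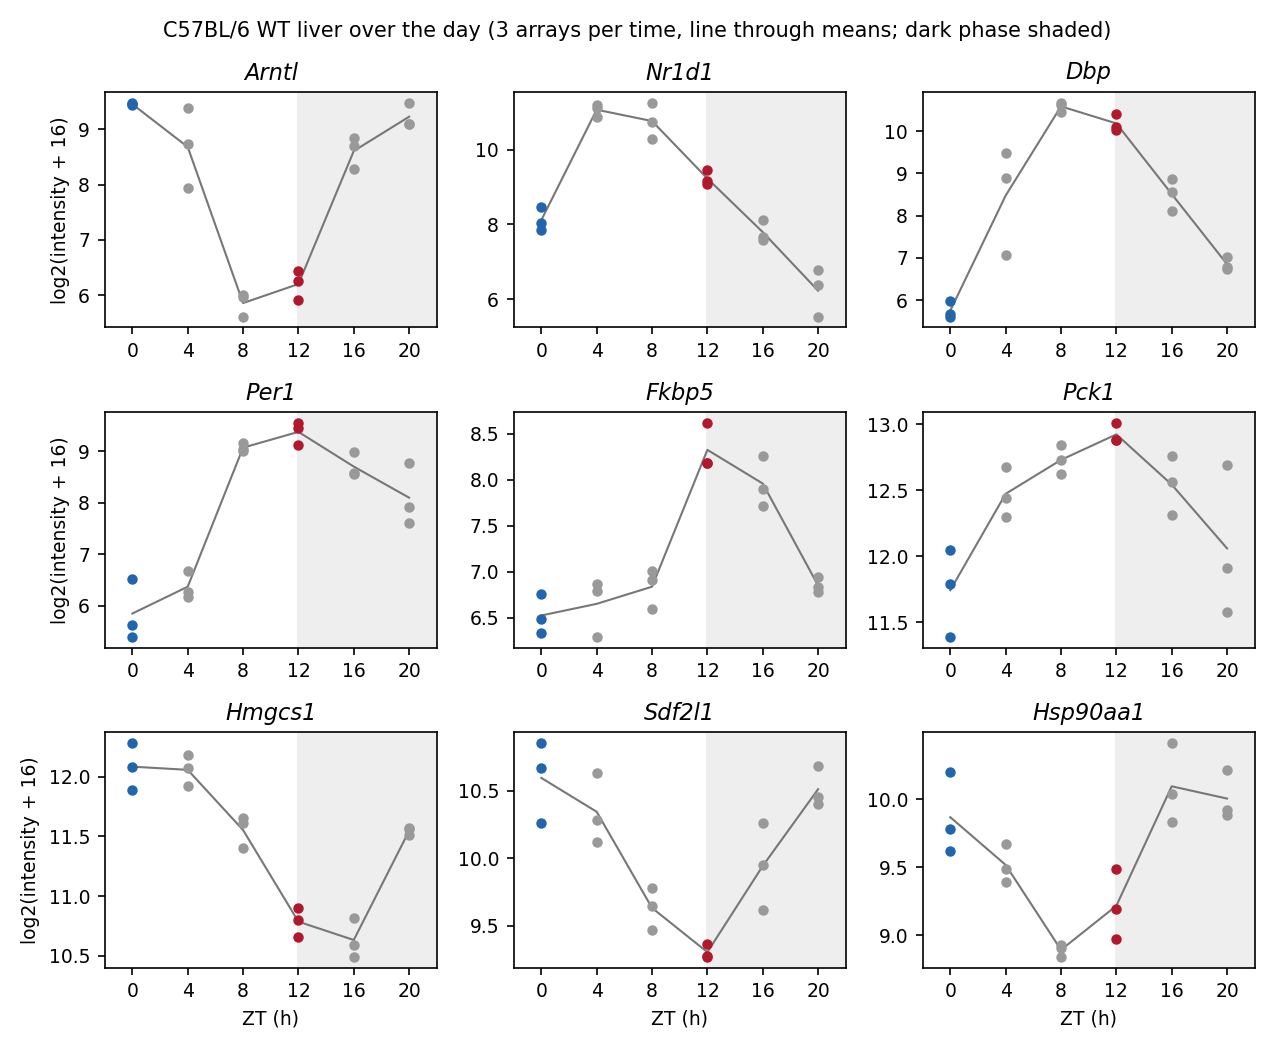
Levels of 9 genes, log2(intensity + 16), in the 18 C57BL/6 WT arrays at ZT0, 4, 8, 12, 16 and 20 (3 points per time, line through the means, ZT12 red and ZT0 blue, dark phase shaded). Arntl is highest and Dbp lowest at ZT0, Per1, Fkbp5 and Pck1 are highest and Sdf2l1 is lowest at ZT12, while Nr1d1 is highest at ZT4, Hsp90aa1 is lowest at ZT8 and Hmgcs1 at ZT16.

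Transport and detoxification genes were mixed. Of 18 bile acid genes 2 rose, the sterol exporters Abcg5 (1.19 ± 0.26) and Abcg8 (1.14 ± 0.30), and 3 fell, against 5.2% and 4.63% of all genes. Abcb11, the bile salt export pump, had 2138.7, 1968.6 and 2242.8 at ZT12, against 3427.1, 3304.4 and 4173.0 at ZT0 (-0.77 ± 0.08, limma adjusted p 3.13e-08). Cyp7a1, the rate-limiting enzyme of bile acid synthesis, had 3460.5, 4680.9 and 4927.7 at ZT12 and 3089.9, 2078.3 and 2531.3 at ZT0, groups that did not overlap, but did not pass (0.76 ± 0.29, limma adjusted p 0.094). Abcg8 did not pass without ZT12 replicate 3. Of 39 xenobiotic genes 6 rose and 1 fell, against the same shares of all genes. Nr1i3 (CAR), a receptor for foreign compounds, had 1809.5, 1706.7 and 2057.1 at ZT12, against 965.2, 920.9 and 847.6 at ZT0 (1.01 ± 0.25), and Nr1i2 (PXR) rose by 0.54 ± 0.13. Cyp2a5 rose by 1.20 ± 0.24. Without ZT0 replicate 2 the number that rose was 3, Nr1i2 not among them, and Nr1i2 did not pass without ZT12 replicate 1 either. Nr1i3 did not pass when all 72 arrays entered the fit.

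None of 27 ribosome biogenesis genes or 24 cytosolic ribosomal protein genes passed, with ranges of -0.26 to 0.52 and -0.25 to 0.15 (log2), and neither did any of 13 growth hormone and STAT5 targets. Of 18 aminoacyl-tRNA synthetase genes 4 fell (22.2%), against 4.63% of all genes. Among these Tars, the threonine enzyme, had 572.9, 699.4 and 515.5 at ZT12, against 1372.2, 1269.3 and 1465.0 at ZT0 (-1.19 ± 0.14, limma adjusted p 2.47e-07). The other 3 fell by 0.31 to 0.42, and Tars alone fell without ZT12 replicate 1 or with arrays centred on their medians, while 2 fell without ZT0 replicate 3. Of 30 proteasome genes 3 fell (10%, against 4.63% of all genes), Psmd11 by 0.48 ± 0.08, and 1 to 2 fell with any array left out. Of 19 autophagy and lysosome genes 5 rose and 1 fell, against 5.2% and 4.63% of all genes. Bnip3, a receptor for mitophagy, had 1097.5, 987.2 and 1110.8 at ZT12 and 515.8, 512.9 and 535.0 at ZT0 (1.01 ± 0.13), and the kinase gene Ulk1, which starts autophagy, rose by 0.69 ± 0.12. Without ZT12 replicate 3 or ZT0 replicate 3 the number that rose was 3. Of 27 respiratory chain genes 1 rose (3.7%), a share under the 5.2% of all genes that rose. It was Uqcrc1, by 0.23 ± 0.06, which did not pass without ZT12 replicate 3, ZT0 replicate 2 or ZT0 replicate 3.

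Of 29 amino acid and urea cycle genes 2 rose and 2 fell, few more than the 5.2% and 4.63% of all genes would give. Gldc, of the glycine cleavage system, had 1544.4, 1282.9 and 1443.3 at ZT12, against 2710.0, 2535.3 and 2661.5 at ZT0 (-0.89 ± 0.16). The other 3, Gpt, Gpt2 and Cbs, each lost the call without ZT12 replicate 3 or ZT0 replicate 3. Of 26 acute phase genes 3 rose and 4 fell. Il6ra, the interleukin 6 receptor, had 1405.8, 1630.6 and 2023.0 at ZT12 and 617.6, 434.8 and 401.2 at ZT0 (1.78 ± 0.21, limma adjusted p 6.7e-07), whereas the other 6 changed by at most 0.71 in size and passed at adjusted p of 0.0198 to 0.047. With arrays centred on their medians the number of these that fell was 0. Of 20 immediate early and SRF targets 2 rose and 2 fell, against the same shares of all genes. Those that fell were Tubb2a and Vcl (vinculin, -0.53 ± 0.12). The number that rose was 0 without ZT0 replicate 3, and 1 without ZT12 replicate 2 or 3 or ZT0 replicate 2. Of 17 cell cycle genes Wee1 and Ccne1 (cyclin E1, 0.69 ± 0.15) rose and Cdkn1a fell.

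Among markers of other cells, Sox9, a factor of bile duct cells, had 244.8, 131.2 and 240.4 at ZT12, against 1033.7, 593.0 and 429.2 at ZT0 (-1.62 ± 0.33, limma adjusted p 0.00108). The other bile duct markers tested did not pass, with Krt19 at 54.3, 61.5 and 41.8 at ZT12 and 59.3, 49.1 and 54.0 at ZT0, and Epcam at 51.3, 66.0 and 68.2 at ZT12 and 64.3, 70.5 and 44.3 at ZT0. Both lay near the low-signal floor (6.00, log2), where a change is hard to read. The summed bile duct list (6 genes, 3 of them under the low-signal floor) was 327.9 to 409.0 at ZT12 and 579.4 to 1224.4 at ZT0, Sox9 included. The Kupffer cell genes Marco (0.48 ± 0.46), Cd68 (0.35 ± 0.26) and Cd5l (0.27 ± 0.38) did not pass.

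Of the 692 higher genes, 461 had their highest mean over the 6 times of day at ZT12, 117 at ZT8 and 104 at ZT16, and 477 had their lowest at ZT0. Of the 616 lower genes, 476 had their lowest mean at ZT12, 104 at ZT8 and 35 at ZT16, and 287 had their highest at ZT0, 175 at ZT20 and 121 at ZT4. Both extremes fell on the 2 times for 308 and 221 genes. These counts use the arrays that called the genes, which places extremes at or near the 2 times by selection, and no rhythm was tested.

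The same contrast was read in livers that share no array with these. In SIRT1 KO livers 995 genes were called (7.48%), 550 higher (4.13%) and 445 lower (3.34%). With arrays centred on their medians the balance turned, with 268 higher and 637 lower, while the median gene changed by -0.058 (log2) and not by 0.026. Of the 692 genes higher in C57BL/6 WT livers, 294 were called higher there (42.5% of the WT list and 53.5% of the KO list), and of the 616 lower genes 278 were called lower (45.1% and 62.5%). None was called in the opposite direction, and 95.8% of those up at ZT12 and 93.2% of those down had the same sign, where 64.2% of all genes did. The difference between the WT and KO changes was past the threshold for 0 of 13308 genes in limma, with 954 at an unadjusted p of 0.05. Among the lists, 14 cholesterol genes fell in WT and 4 in KO livers, with medians of -0.51 and -0.23, and 14 ER folding genes fell in WT and 3 in KO livers, with medians of -0.36 and -0.15. Fatty acid synthesis genes had another balance, with 2 higher and 4 lower in WT and 5 higher and 1 lower in KO livers, and medians of -0.35 and 0.39. No member of these lists passed the test of the difference. In KO livers 3 of 12 endothelial and 2 of 12 stellate cell markers fell and 0 rose, with medians of -0.28 and -0.30, where 0 passed in WT livers. The 14 Kupffer cell markers had a median of -0.47 in KO livers, with 0 called. Replicates of KO livers correlated at r of 0.9774 or more at ZT12 and 0.9869 or more at ZT0. The part of these cells in the KO results was not tested.

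In 129 mixed WT livers 277 genes were called (2.08%), 72 higher (0.541%) and 205 lower (1.54%), and the lowest r between replicates was under that of the C57BL/6 livers. At ZT12, replicate 1 stood apart, with r of 0.9202 and 0.9035 to the other arrays, which correlated at 0.9894, and at ZT0 the lowest r was 0.9640. The summed intensity of 13 lymphocyte and neutrophil markers in these livers was 3842.8, 583.0 and 458.9 at ZT12, against 504.9, 2107.9 and 900.5 at ZT0, and that of 14 Kupffer cell markers was 17305.8, 8155.4 and 4354.7 at ZT12, against 5781.4, 13306.7 and 8247.9 at ZT0. Both sums were highest in ZT12 replicate 1, and the part of these cells in the 129 mixed results was not tested. Without that array 240 genes were called, 75 higher and 165 lower. With arrays centred on their medians 40 were higher and 238 lower. Of the genes higher in C57BL/6 WT livers 54 were called higher there (7.8% of the C57BL/6 list and 75% of the 129 mixed list), and of the lower genes 135 were called lower (21.9% and 65.9%), with 0 in opposite directions. The sign was the same for 73.1% of the C57BL/6 genes up at ZT12 and 90.9% of those down, where it was so for 56.9% of all genes. The higher genes had a median change of 0.46 (log2) in C57BL/6 and 0.11 in 129 mixed livers, the lower genes -0.54 and -0.29. Genes called in 1 direction in all 3 kinds of liver numbered 153, 48 higher and 105 lower.

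**Figure D5:**
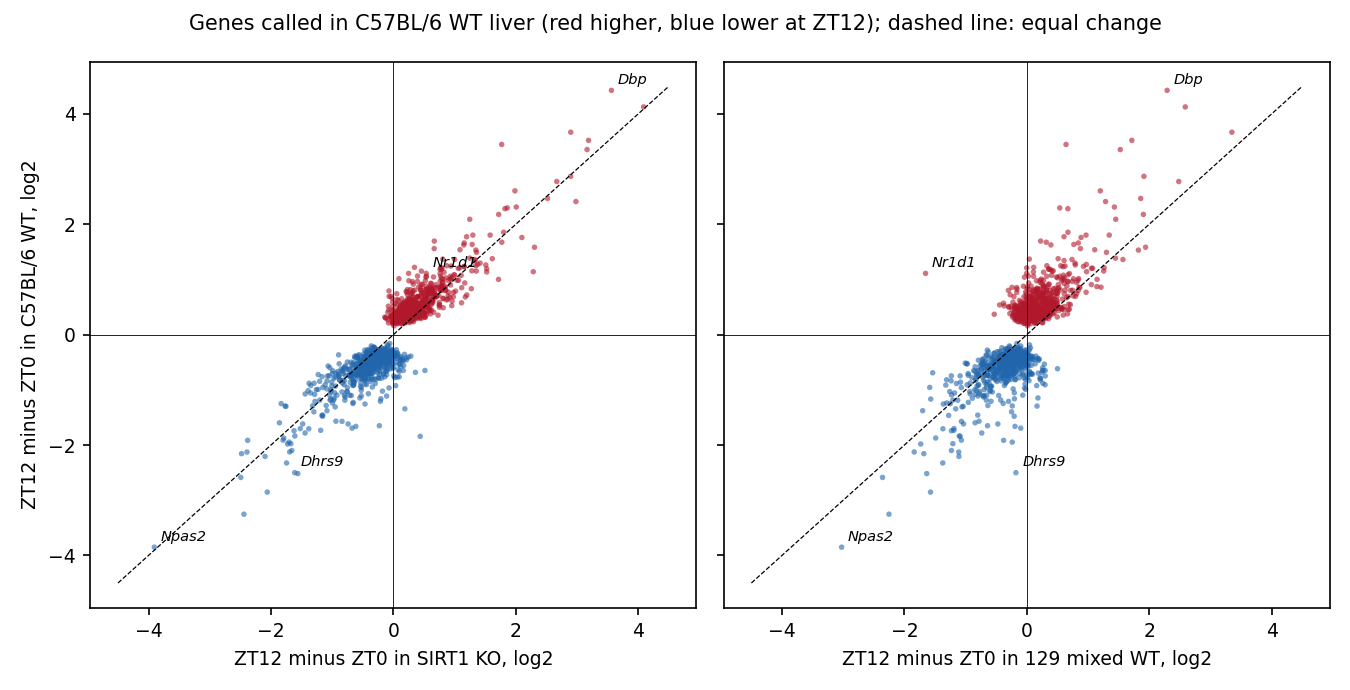
ZT12 minus ZT0 (log2) in C57BL/6 WT livers, vertical axis, against the same contrast in SIRT1 KO livers (left) and 129 mixed WT livers (right), for the 692 genes higher (red) and 616 lower (blue) in C57BL/6 WT livers, with a dashed line of equal change. Genes lie nearer the line on the left, and Nr1d1 is the gene named on the right whose changes have opposite signs (1.11 and -1.65). The change of Nr1d1 in 129 mixed livers did not pass the test.

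The difference between C57BL/6 WT and 129 mixed WT livers passed for 16 genes (0.12%), 9 with a positive difference, C57BL/6 minus 129 mixed (0.0676%), and 7 with a negative one (0.0526%), and 1339 genes had an unadjusted p under 0.05 in limma. The split was 24 positive and 6 negative with arrays centred on their medians, under which the median difference over all genes was 0.129 (log2) and not 0.02, and 269 and 56 with array weights. The clock genes Nr1d1 and Nr1d2 were among them. Nr1d1, which was higher at ZT12 in C57BL/6 livers, had 162.6, 380.4 and 327.3 at ZT12 in 129 mixed livers, against 1181.9, 411.9 and 1461.7 at ZT0. Its change there was -1.65 ± 0.45 and the difference 2.76 ± 0.53 (limma adjusted p 0.00774). The fall within 129 mixed livers did not itself pass the test. Without ZT12 replicate 1 of that strain it was -1.30 (limma adjusted p 0.238). Nr1d2 differed by 1.61 ± 0.33, with 794.5, 1092.1 and 1062.9 at ZT12 and 656.2, 361.9 and 929.0 at ZT0 in 129 mixed livers. Dhrs9, a retinol dehydrogenase, had 17.4, 15.4 and 23.6 at ZT12, against 187.9, 137.6 and 224.6 at ZT0 in C57BL/6 livers. In 129 mixed livers it had 49.5, 33.5 and 37.3 at ZT12 and 51.1, 44.5 and 45.7 at ZT0, and the difference was -2.32 ± 0.34 (limma adjusted p 0.000107). All 129 mixed values of Dhrs9 lay near or below the low-signal floor (6.00, log2). Its C57BL/6 values at ZT12 were below that floor (5.06, 4.97 and 5.31). Celsr1, a planar polarity cadherin, had 156.5, 152.5 and 117.6 at ZT12 and 420.4, 504.7 and 526.1 at ZT0 in C57BL/6 livers, against 261.6, 221.0 and 185.4 at ZT12 and 285.1, 257.8 and 224.0 at ZT0 in 129 mixed livers. Neither Nr1d1 (2.42, limma adjusted p 0.0911) nor Nr1d2 (1.47, limma adjusted p 0.135) passed without 129 mixed ZT12 replicate 1, the array that stood apart, nor did either without 129 mixed ZT0 replicate 3, and Nr1d2 did not pass without C57BL/6 ZT12 replicate 1 or 3 or ZT0 replicate 3. Dhrs9 and Celsr1 passed in each fit with 1 of these 12 arrays left out. Strain, cohort and normalization of the cohorts cannot be told apart in this comparison. The number that passed was 4 without 129 mixed ZT12 replicate 1, 5 without 129 mixed ZT0 replicate 3, 6 without C57BL/6 ZT12 replicate 1 or 3, 8 without C57BL/6 ZT0 replicate 3, 10 without C57BL/6 ZT0 replicate 2, 28 without 129 mixed ZT12 replicate 3 and 36 without C57BL/6 ZT0 replicate 1.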

How the data were processed

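Liver RNA of 72 mouse samples was measured on single-colour arrays, 1 per sample, of which 6 make up the comparison. Per the submitters' processing notes, the authors used Affymetrix Expression Console 1.1.1 and PLIER 2.0. The sources used here give neither normalization settings, nor array batches, nor a build. Deposited values are linear intensity readings, 1 per probe set and array, with 0 columns left unmatched to a sample. The number of arrays limits the precision.

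Of 41345 probe sets, 23521 had 1 gene symbol, 1814 several and 16010 none, and only the first kind was named. Each of 22180 genes was represented by the probe set with the highest mean over all arrays. Values became log2(intensity + 16), fold changes are on that scale, which understates low genes, and the lowest 40% of genes (floor 6.00) were left out, leaving 13308. A gene that passed the floor only through its high group had to differ.

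The 36 arrays of each cohort were fitted as 12 group means with limma 3.58.1 (R 4.3.3), moderated with an intensity trend, and p-values were Benjamini-Hochberg adjusted over all genes (threshold 0.05). Differences between contrasts used the 36 or all 72 arrays. The fit was tested on simulated data. Named genes were the clock lists, the 15 highest and 15 lowest called changes without overlap, up to 5 called members of each other list per direction by smallest p with up to 3 that did not pass, up to 6 genes per direction of each difference, and the genes nearest the threshold or most like Dbp and Arntl. Hspa5 was named after its values were seen. Members and gene lists were chosen with earlier results of these data known. Promoters were matched by symbol to RefSeq windows (10455 of 13308 genes matched). Alternatives covered normalization, pseudocounts of 1 and 64, filters, a replicate block, array weights, no trend, a 0.01 threshold, all probe sets, other sets of arrays and each array left out. Replicate numbers of ZT12 and ZT0 arrays did not pair (correlations of same-numbered deviations -0.157, 0.117 and 0.068).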

Additional observations from a re-analysis of the deposited data

Results flagged for a closer look

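The ZT12 minus ZT0 change differed between C57BL/6 WT and 129 mixed WT livers, by a limma test of the difference itself over all 72 arrays, for 16 genes. The values below are C57BL/6 minus 129 mixed differences of the ZT12 minus ZT0 change (log2). Of these, 9 were positive, those of Nr1d1 (2.76), Nr1d2 (1.61), Hdac11 (0.80), Epc2 (0.73), Sgms1 (0.71), Tbc1d20 (0.62), Uri1 (0.58), Ypel5 (0.55) and Chmp1a (0.48). The other 7 were negative, those of Dhrs9 (-2.32), Celsr1 (-1.47), Cdcp1 (-1.33), Neu2 (-1.21), Gm7969 (-1.14), Rfxank (-0.86) and Nav2 (-0.85). Dhrs9 had the smallest adjusted p among them, and lay near or below the low-signal floor in 129 mixed livers at both times. Epc2 was the member that passed in the difference without passing in C57BL/6 livers (0.27 ± 0.10, limma adjusted p 0.0899). Without 129 mixed ZT12 replicate 1, the 4 that passed were Celsr1, Dhrs9, Gm7969 and Rfxank. Part of the spread of Nr1d1 in 129 mixed livers lay in 1 array, ZT0 replicate 2, at 411.9 where the other ZT0 arrays were at 1181.9 and 1461.7.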

How the results depend on the processing

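The number of genes called between ZT12 and ZT0 in C57BL/6 WT livers was 1651 with quantile normalization, 1134 with median centring, under which the median gene changed by 0.055 and not by 0, 1076 without the filter on low genes, 1253 with the replicate block, 1773 with array weights (whose estimation stopped before it converged in some fits), 1070 from the 6 arrays alone and 919 from the 18 C57BL/6 WT arrays, all within 1.5 times the 1308 reported. With 1 array left out, between 798 and 982 of the 1308 were called again. A threshold of 0.01 gave 691 genes in C57BL/6 WT, 504 in SIRT1 KO and 132 in 129 mixed WT livers, and 5 for the difference between the strains. Array weights gave 1194 in 129 mixed WT livers and 325 for that difference, which was 30 with median centring, 8 without the filter and 7 with the replicate block. With 1 array left out the ranges were 823 to 1133 genes in C57BL/6 WT, 560 to 1349 in SIRT1 KO and 146 to 240 in 129 mixed WT livers, 4 to 36 for the difference between the strains and 0 to 0 for that between genotypes. No direction of a named gene that passed turned round under any alternative run. The cause of these shifts was not tested. With 3 arrays a group, lists of small changes (proteasome, acute phase, tRNA synthetase and amino acid genes) lost most calls under 1 or more alternatives.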
